A study of Mus musculus with 10 samples.

Results

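The genes that carry glucose into the cell and break it down to pyruvate and lactate were followed in the Achilles tendon of Mkx conditional knockout mice. They comprise glucose transporters, the enzymes of glycolysis with their regulators, lactate dehydrogenases and lactate transporters, the kinases that shut pyruvate out of mitochondrial oxidation, and the muscle enzymes that store and release glycogen. Rows of the count table were taken by gene symbol, and 34 symbols matched 35 of 32285 rows, because Aldoa has a second row (ENSMUSG00000114515). All 35 rows were among the 16017 genes that passed the filter on low counts.

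Glycolysis turns 1 glucose into pyruvate in the cytosol, and pyruvate is either reduced to lactate by lactate dehydrogenase or oxidized in mitochondria through the pyruvate dehydrogenase complex. Several steps are run by paralogs with different tissue patterns: skeletal muscle uses its own glucose transporter, hexokinase, phosphofructokinase, phosphoglycerate mutase, enolase and glycogen phosphorylase, while most other cells use ubiquitous forms. Tendon has few blood vessels, and its fibroblasts are known to rely on glycolysis to a large extent. Muscle fibres differ among themselves: fast fibres are rich in glycolytic enzymes and glycogen phosphorylase, and slow oxidative fibres are rich in the heart-type lactate dehydrogenase subunit and the lactate importer.

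Mkx encodes Mohawk, a homeobox transcription factor needed for tendon development. The knockout mice carried an Mkx-CreER allele, the source of a Cre recombinase that works only with tamoxifen, together with an Mkx allele flanked by Cre target sites (Mkx-CreER/flox, n = 3). One control genotype had the Cre allele only (Mkx-CreER/+, n = 3) and the other had the floxed allele only (Mkx flox/+, n = 4). All 10 mice received tamoxifen, 20 mg/kg, at 6 weeks of age, and whole Achilles tendons were taken 4 weeks later for total RNA sequencing by RamDA-seq. The series text writes the floxed control without naming its second allele, and the sources used here do not give whether the CreER allele disrupts Mkx. Libraries are numbered here as in the count table. Nothing in the labels says that libraries of a genotype came from separate litters or days, so p-values measure the spread between these libraries.

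Libraries held 8680934 to 22656417 counts, at which 3 counts are worth 0.126 to 0.36 CPM (counts scaled to a common library size by TMM). Mkx itself measured 26.1 to 32.4 CPM in Mkx-CreER/flox, 91.4 to 93.8 CPM in Mkx-CreER/+ and 121 to 187 CPM in Mkx flox/+. Tendon markers were present in every library: the summed level of 9 markers was 28230 to 37962 CPM in Mkx-CreER/flox, 46682 to 59950 CPM in Mkx-CreER/+ and 74988 to 136395 CPM in Mkx flox/+. Skeletal muscle RNA was present too. A list of 24 muscle markers, none of them a member and none at 0 in any library, took 9.65% ± 2.35 of the counts in Mkx-CreER/flox, 6.08% ± 2.58 in Mkx-CreER/+ and 3.56% ± 1.95 in Mkx flox/+ (SD, n = 3, 3 and 4). The difference of 5.02 percentage points between Mkx-CreER/flox and the 7 controls gave p = 0.025 in a two-sided exact permutation test, p = 0.111 (3.69 points) without Mkx-CreER/flox 1 and p = 0.0556 (5.43 points) without Mkx-CreER/flox 4. Against both controls, 5 of these 24 markers rose and 0 fell (edgeR adjusted p under 0.05, as for the members below). The shares over all genes tested were 3.03% that rose and 1.62% that fell. Of the other marker lists, 4 of 9 tendon genes fell (median -0.78) and 9 of 9 macrophage genes fell (median -1.36). None of 8 adipocyte (median -0.46) and 5 erythroid genes (median -0.64) was called. Of endothelial genes 1 of 8 rose (median 0.42), and of Schwann cell genes 1 of 8 (median 2.28), with all 8 values positive in each list. Against Mkx-CreER/+ alone, no gene of any of these marker lists was called. Summed Schwann cell markers were 490 to 2307 CPM in Mkx-CreER/flox, 440 to 1003 CPM in Mkx-CreER/+ and 480 to 863 CPM in Mkx flox/+. In whole tissue, fewer cells of a type and less RNA per cell cannot be told apart.

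Against both controls, 5 of the 35 member rows rose and 0 fell (edgeR quasi-likelihood test, Benjamini-Hochberg adjusted p under 0.05 over all genes tested). Those that rose were Hk2, Ldhb, Gys1, Slc16a1 and Pdk4, by 0.94 to 1.67 on the log2 scale. Of all genes tested, 4.65% changed in that comparison, 3.03% rose and 1.62% fell, and 14.3% of the members rose. The members were chosen with earlier results of these data known, so these shares are given as a description. At an unadjusted p under 0.05 stood 8 members (22.9%), against 20.7% of all genes tested. The chain from glucose 6-phosphate to pyruvate did not move as a block: 0 of 8 members of upper glycolysis and 0 of 8 of lower glycolysis passed, with median log2 fold changes of -0.08 and 0.07. The median over the 35 rows was 0.08, against 0.016 over all genes tested. Together the members took 0.76% ± 0.0197 of the counts in Mkx-CreER/flox, 0.8% ± 0.364 in Mkx-CreER/+ and 0.575% ± 0.221 in Mkx flox/+ (SD, n = 3, 3 and 4).

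**Figure D1:**
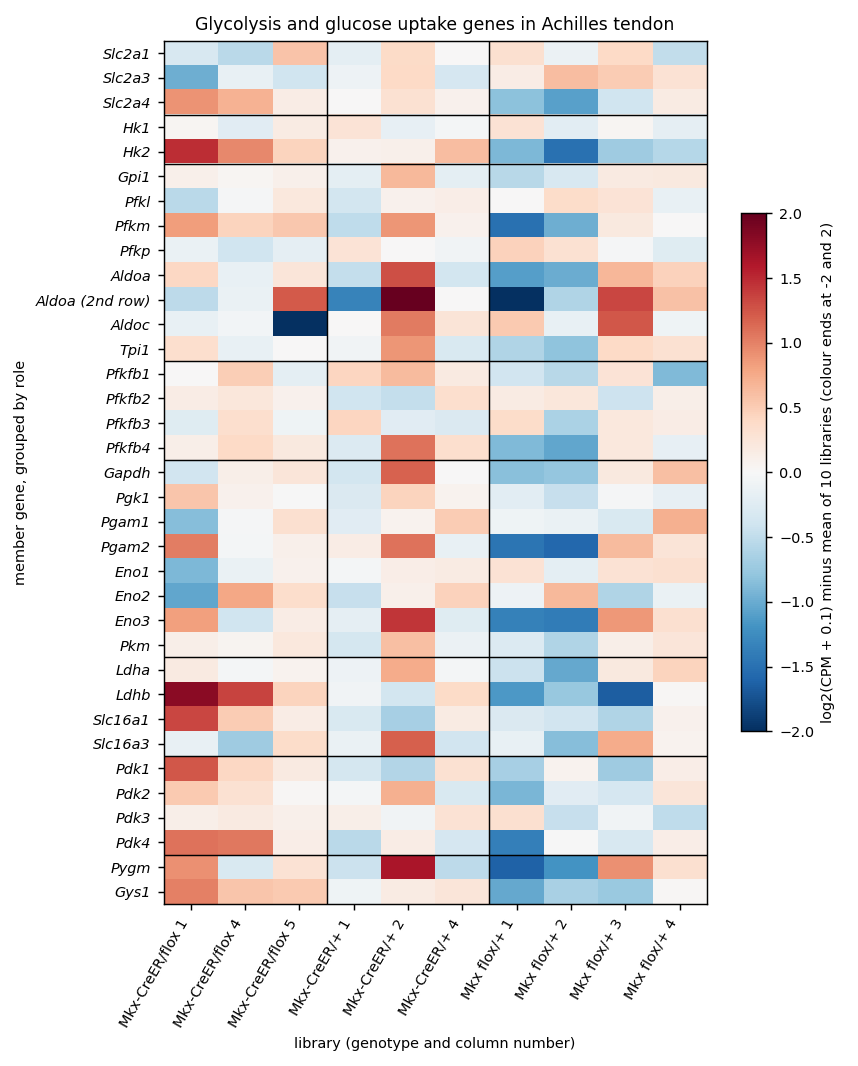
Level of every member row in each of the 10 libraries, as log2(CPM + 0.1) minus the row's mean over all libraries, ordered by role from glucose transporters at the top to glycogen enzymes at the bottom, with genotypes in columns. Red is above the row's mean and blue below it; Hk2, Ldhb and Gys1 are reddest in Mkx-CreER/flox 1, while Aldoa, Eno3 and Pygm are reddest in Mkx-CreER/+ 2.

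The rise of Hk2, the insulin-regulated hexokinase of muscle and fat that traps glucose as glucose 6-phosphate, was the one least tied to any single library. Hk2 (ENSMUSG00000000628, chromosome 6, 82725025 to 82774454, mm10) measured 263, 183 and 128 CPM in Mkx-CreER/flox 1, 4 and 5, against 100, 101 and 145 CPM in Mkx-CreER/+ 1, 2 and 4 and 50.4, 33.4, 57.4 and 63.2 CPM in Mkx flox/+ 1 to 4. The lowest Mkx-CreER/flox library lay under Mkx-CreER/+ 4 and above the other 6 controls. The log2 fold change was 1.32 (SE 0.223, edgeR adjusted p = 0.0142), which is 249% of the control level, and Hk2 kept its call in 10 of 10 omissions of a library (edgeR adjusted p = 0.00642 to 0.0474). Hk1, the ubiquitous hexokinase, stayed between 39.3 and 56.5 CPM in all 10 libraries, with a log2 fold change of -0.02 (SE 0.169).

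Ldhb encodes the heart-type subunit of lactate dehydrogenase, which favours the conversion of lactate to pyruvate. Ldhb (ENSMUSG00000030246, chromosome 6, 142490249 to 142507957) measured 461, 338 and 179 CPM in Mkx-CreER/flox 1, 4 and 5, against 126, 102 and 172 CPM in Mkx-CreER/+ 1, 2 and 4 and 59.6, 77.9, 42 and 134 CPM in Mkx flox/+ 1 to 4. All Mkx-CreER/flox libraries lay above all controls, a pattern shown by 2 member rows and by 3.81% of all genes tested. No member row had all Mkx-CreER/flox libraries below all controls, against 3.12% of all genes. The log2 fold change of 1.67 (SE 0.332, edgeR adjusted p = 0.0244) was the largest of the members. Ldhb missed the threshold when 1 of 4 libraries was dropped: Mkx-CreER/flox 1 (1.32, adjusted p = 0.147), Mkx-CreER/flox 4 (1.64, 0.0704), Mkx-CreER/+ 1 (1.64, 0.0659) or Mkx-CreER/+ 2 (1.59, 0.0645). It also missed it in a fit with no filter on low counts (1.66, adjusted p = 0.0586). Ldha, the muscle-type subunit that favours lactate, ranged from 680 to 789 CPM in Mkx-CreER/flox, from 650 to 1164 CPM in Mkx-CreER/+ and from 342 to 947 CPM in Mkx flox/+, with a log2 fold change of -0.00 (SE 0.283).

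Slc16a1 (MCT1) is the monocarboxylate transporter through which oxidative cells take up lactate. Slc16a1 (ENSMUSG00000032902, chromosome 3, 104638668 to 104658462) measured 147, 82.7 and 64.2 CPM in Mkx-CreER/flox 1, 4 and 5, against 47, 36.3 and 64.9 CPM in Mkx-CreER/+ 1, 2 and 4 and 47.4, 44.3, 37.9 and 61.1 CPM in Mkx flox/+ 1 to 4. Mkx-CreER/flox 5 lay just under the highest control, and Mkx-CreER/flox 1 was far above the others. It rose by 1.01 (SE 0.241, edgeR adjusted p = 0.0326). That call held in 3 of 10 omissions, those of Mkx-CreER/flox 5, Mkx-CreER/+ 4 and Mkx flox/+ 4. It was lost on dropping Mkx-CreER/flox 1 or 4, Mkx-CreER/+ 1 or 2, or Mkx flox/+ 1, 2 or 3, where values ran from 0.58 to 1.12 and edgeR adjusted p from 0.0572 to 0.182, with 0.58 and 0.182 for Mkx-CreER/flox 1. Slc16a3 (MCT4), the exporter of lactate from glycolytic cells, averaged 17.6 ± 6.48 CPM in Mkx-CreER/flox, 24.9 ± 15.9 CPM in Mkx-CreER/+ and 19.7 ± 8.8 CPM in Mkx flox/+ (SD, n = 3, 3 and 4), with a log2 fold change of -0.34 (SE 0.393).

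Glycogen synthase and glycogen phosphorylase, which act in opposite directions, gave different values. Gys1, the glycogen synthase of muscle and most tissues outside the liver (ENSMUSG00000003865, chromosome 7, 45434844 to 45456619), measured 195, 143 and 139 CPM in Mkx-CreER/flox 1, 4 and 5, against 91.4, 108 and 114 CPM in Mkx-CreER/+ 1, 2 and 4 and 47.4, 61.7, 57.7 and 98.3 CPM in Mkx flox/+ 1 to 4. All Mkx-CreER/flox libraries lay above all controls. Gys1 rose by 0.94 (SE 0.199, edgeR adjusted p = 0.0244), and it missed the threshold after the same 4 omissions as Ldhb, with values of 0.74 without Mkx-CreER/flox 1 (adjusted p = 0.0908) and at least 0.87 without Mkx-CreER/flox 4, Mkx-CreER/+ 1 or Mkx-CreER/+ 2 (adjusted p = 0.0611 to 0.069). Ruvbl2 on the other strand overlaps 6.5% of the exon length of Gys1, and whether counts were assigned by strand is a detail not given in the sources used here. Pygm, the muscle glycogen phosphorylase (ENSMUSG00000032648), measured 872, 373 and 568 CPM in Mkx-CreER/flox 1, 4 and 5, against 344, 1428 and 321 CPM in Mkx-CreER/+ 1, 2 and 4 and 151, 202, 876 and 577 CPM in Mkx flox/+ 1 to 4. The highest Pygm values were in a control of each genotype, the groups overlapped, and the log2 fold change was 0.11 (SE 0.645).

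Pyruvate dehydrogenase kinases phosphorylate and shut off the pyruvate dehydrogenase complex, and Pdk4 is the form induced by fasting and fat oxidation in muscle. Pdk4 (ENSMUSG00000019577, chromosome 6, 5483351 to 5496309) measured 391, 384 and 202 CPM in Mkx-CreER/flox 1, 4 and 5, against 126, 204 and 145 CPM in Mkx-CreER/+ 1, 2 and 4 and 71.5, 183, 148 and 202 CPM in Mkx flox/+ 1 to 4. Mkx-CreER/flox 5 lay within the control range and the other 2 libraries lay above it. Pdk4 rose by 1.07 (SE 0.282, edgeR adjusted p = 0.0466), a call that held in 2 of 10 omissions, those of Mkx-CreER/flox 5 and Mkx flox/+ 4. It was lost on dropping Mkx-CreER/flox 1 or 4, any Mkx-CreER/+ library, or Mkx flox/+ 1, 2 or 3, where values ran from 0.90 to 1.18 and edgeR adjusted p from 0.053 to 0.249, the last for Mkx-CreER/flox 1. Scaling without mitochondrial, muscle and erythroid genes also ended it (1.06, adjusted p = 0.0507), as did a fit with no filter on low counts (1.06, adjusted p = 0.081). All 4 kinases had positive fold changes, with a median of 0.61. Pdk1 measured 142, 79.9 and 67.8 CPM in Mkx-CreER/flox 1, 4 and 5, against 46.9, 40 and 74.3 CPM in Mkx-CreER/+ 1, 2 and 4 and 36.5 to 65.9 CPM in Mkx flox/+. Its log2 fold change of 0.89 (SE 0.265, edgeR adjusted p = 0.0717) did not pass, but it did on dropping Mkx-CreER/flox 5 (1.07, adjusted p = 0.0411) or, in turn, Mkx-CreER/+ 4 (1.02, 0.0357), and it was 0.48 without Mkx-CreER/flox 1. DESeq2 (adjusted p = 0.0286) and limma voom with sample quality weights (adjusted p = 0.0184) called Pdk1 on all 10 libraries. Pdk2 stood at 0.32 (SE 0.243) and Pdk3 at 0.15 (SE 0.204).

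**Figure D2:**
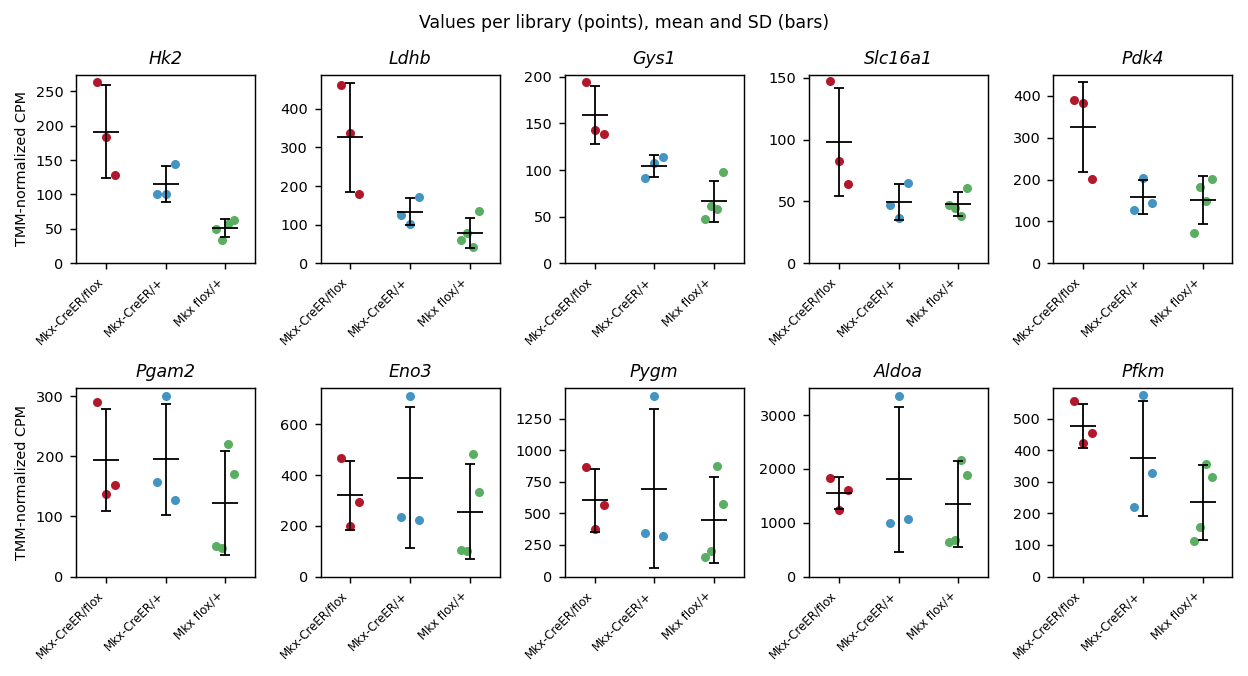
TMM-normalized CPM of 10 members in each library (points), with the mean and SD of each genotype in black, Mkx-CreER/flox on the left of each panel and both controls to its right; every vertical axis starts at 0. The upper row holds the 5 members that rose, and the lower row holds Pgam2, Eno3, Pygm, Aldoa and Pfkm, whose highest value is a control library.

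The promoters of 8 members are shown, those of the 5 that rose together and, for contrast, those of 3 muscle enzymes that did not pass (Pgam2, Eno3 and Pygm). Each window runs from 250 bases before to 50 bases after a transcript start, written 5′ to 3′ on the gene's strand, from RefSeq on GRCm38.p6. Capitals mark matches of CANNTG, the core bound by myogenic basic helix-loop-helix factors, and of the MEF2 motif.
Hk2 (chr6:82774405-82774704, minus strand): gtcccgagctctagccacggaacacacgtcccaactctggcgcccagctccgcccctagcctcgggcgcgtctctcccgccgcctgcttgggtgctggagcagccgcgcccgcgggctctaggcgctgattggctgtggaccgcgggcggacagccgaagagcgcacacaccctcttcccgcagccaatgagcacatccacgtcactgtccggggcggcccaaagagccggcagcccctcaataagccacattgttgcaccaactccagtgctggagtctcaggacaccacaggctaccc
Ldhb (chr6:142507908-142508207, minus strand): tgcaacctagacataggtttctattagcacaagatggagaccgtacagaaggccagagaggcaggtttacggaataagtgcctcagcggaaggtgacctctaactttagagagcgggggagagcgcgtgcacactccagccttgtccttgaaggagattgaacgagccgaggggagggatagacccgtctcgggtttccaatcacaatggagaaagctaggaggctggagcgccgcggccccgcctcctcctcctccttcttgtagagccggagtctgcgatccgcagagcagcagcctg
Gys1 (chr7:45434589-45434888, plus strand): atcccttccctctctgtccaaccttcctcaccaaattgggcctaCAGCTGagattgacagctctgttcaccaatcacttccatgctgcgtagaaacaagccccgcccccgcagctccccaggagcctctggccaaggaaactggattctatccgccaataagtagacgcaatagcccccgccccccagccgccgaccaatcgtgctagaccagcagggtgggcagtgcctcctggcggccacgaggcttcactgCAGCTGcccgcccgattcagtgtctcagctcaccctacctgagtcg
Slc16a1 (chr3:104638414-104638713, plus strand): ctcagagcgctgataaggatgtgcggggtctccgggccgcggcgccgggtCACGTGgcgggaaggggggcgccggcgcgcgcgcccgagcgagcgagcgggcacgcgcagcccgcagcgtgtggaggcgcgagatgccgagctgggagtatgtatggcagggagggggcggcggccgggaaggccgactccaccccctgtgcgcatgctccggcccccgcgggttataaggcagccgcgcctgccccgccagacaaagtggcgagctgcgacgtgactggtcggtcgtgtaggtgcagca
Pdk4 (chr6:5496229-5496528, minus strand): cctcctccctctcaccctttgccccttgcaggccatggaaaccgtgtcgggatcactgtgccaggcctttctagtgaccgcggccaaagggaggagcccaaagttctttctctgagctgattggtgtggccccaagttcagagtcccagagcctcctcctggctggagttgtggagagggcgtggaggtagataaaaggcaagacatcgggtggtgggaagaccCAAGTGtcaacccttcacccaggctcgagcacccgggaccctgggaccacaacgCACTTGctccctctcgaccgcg
Pgam2 (chr11:5803747-5804046, minus strand): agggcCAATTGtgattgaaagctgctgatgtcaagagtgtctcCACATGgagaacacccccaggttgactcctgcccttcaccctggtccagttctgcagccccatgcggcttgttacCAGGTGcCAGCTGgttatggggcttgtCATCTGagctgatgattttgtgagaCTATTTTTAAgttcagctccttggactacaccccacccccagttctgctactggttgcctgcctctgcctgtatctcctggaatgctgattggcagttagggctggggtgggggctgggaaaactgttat
Eno3 (chr11:70656926-70657225, plus strand): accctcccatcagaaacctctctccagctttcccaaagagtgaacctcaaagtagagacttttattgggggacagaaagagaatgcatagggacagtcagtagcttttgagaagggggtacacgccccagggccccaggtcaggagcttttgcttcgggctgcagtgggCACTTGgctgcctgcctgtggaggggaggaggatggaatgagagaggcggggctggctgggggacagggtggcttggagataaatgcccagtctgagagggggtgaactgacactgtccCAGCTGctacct
Pygm (chr19:6384158-6384457, plus strand): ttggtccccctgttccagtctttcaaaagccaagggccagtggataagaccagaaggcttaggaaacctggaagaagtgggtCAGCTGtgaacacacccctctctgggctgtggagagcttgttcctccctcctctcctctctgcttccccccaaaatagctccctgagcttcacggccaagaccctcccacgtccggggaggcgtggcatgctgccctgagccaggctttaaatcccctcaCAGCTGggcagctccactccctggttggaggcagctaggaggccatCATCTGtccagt

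Windows were found for 32 of the 34 symbols, 51 in all, and both strands were searched. CANNTG was in 37 of 51 member windows (72.5%) and in 72.3% of the 32851 windows of all genes. The MEF2 motif was in 2 (3.92%, against 3.19%), those of Pgam2 and of 1 Pfkfb1 transcript. The hypoxia response cores ACGTG and GCGTG were in 22 windows (43.1%, against 19.6%) and 27 windows (52.9%, against 32.4%). Among the windows shown, Hk2 and Ldhb held no CANNTG, Slc16a1 held 1, Gys1, Pdk4 and Eno3 held 2 each, Pygm held 3 and Pgam2 held 5. Over both strands, ACGTG occurred 2 times in the Hk2 window, 3 times in that of Slc16a1 and 1 time in that of Pygm. The windows of Ldhb, Gys1, Pdk4, Pgam2 and Eno3 held none. The other hypoxia response core occurred 2 times in the Slc16a1 window and 1 time each in those of Ldhb, Pdk4, Eno3 and Pygm. Neither core was in the windows of Gys1 and Pgam2. A CACGTG in the Slc16a1 window, which reads the same on either strand, holds ACGTG on each of them and is also its CANNTG match. Windows of 1 gene can overlap, and a match is a description of these letters and not of binding.

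Glucose transporters showed no call against both controls. Slc2a4 (GLUT4), the insulin-responsive transporter of muscle and fat, measured 90.2, 78 and 53.2 CPM in Mkx-CreER/flox 1, 4 and 5, against 48.5, 59.6 and 50.8 CPM in Mkx-CreER/+ 1, 2 and 4 and 22.7 to 53.7 CPM in Mkx flox/+. Its log2 fold change of 0.78 (SE 0.231, edgeR adjusted p = 0.0689) missed the threshold, but passed it on dropping Mkx-CreER/flox 5 (0.95, adjusted p = 0.0357) or, in turn, Mkx flox/+ 4 (0.90, 0.0226). Slc2a4 was also called by DESeq2 (adjusted p = 0.0351), by limma voom with sample quality weights (adjusted p = 0.00801) and by edgeR with no filter (adjusted p = 0.0475). Slc2a1 (GLUT1), the basal transporter of most cells, ranged from 18 to 38.8 CPM in Mkx-CreER/flox, from 22.7 to 34.1 CPM in Mkx-CreER/+ and from 18.5 to 34.4 CPM in Mkx flox/+, with a fold change of -0.10 (SE 0.259). Slc2a3 (GLUT3), a high-affinity transporter of neurons and leukocytes, measured 6.06, 10.8 and 9.09 CPM in Mkx-CreER/flox 1, 4 and 5, against 11.2, 15.9 and 9.55 CPM in Mkx-CreER/+ 1, 2 and 4 and 13.3 to 18.5 CPM in Mkx flox/+. It stood at -0.68 (SE 0.242, edgeR adjusted p = 0.12). Beside it, all 9 macrophage markers fell against both controls, where 1.62% of all genes tested fell, and none was called against Mkx-CreER/+ alone. Their summed levels were 701 to 792 CPM in Mkx-CreER/flox, 1023 to 2532 CPM in Mkx-CreER/+ and 1502 to 2497 CPM in Mkx flox/+. The part of these markers in the Slc2a3 level was not tested.

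Upper glycolysis runs from glucose 6-phosphate to the triose phosphates. Pfkm, the muscle phosphofructokinase of the first committed step (ENSMUSG00000033065), measured 554, 422 and 454 CPM in Mkx-CreER/flox 1, 4 and 5, against 219, 574 and 329 CPM in Mkx-CreER/+ 1, 2 and 4 and 111, 158, 356 and 314 CPM in Mkx flox/+ 1 to 4. Among the controls, Mkx-CreER/+ 2 alone reached the Mkx-CreER/flox range, and the log2 fold change was 0.69 (SE 0.346, edgeR adjusted p = 0.287). The other phosphofructokinases were lower in level: Pfkp, the platelet form, averaged 73.5 ± 7.09 CPM in Mkx-CreER/flox, 91.3 ± 11.9 CPM in Mkx-CreER/+ and 96.1 ± 21.1 CPM in Mkx flox/+ (SD, n = 3, 3 and 4), at -0.35 (SE 0.173, edgeR adjusted p = 0.27). Pfkl, the liver form, lay between 9.41 and 17.8 CPM in all libraries, at -0.14 (SE 0.22). Aldoa, the aldolase of muscle and most tissues, measured 1823, 1238 and 1615 CPM in Mkx-CreER/flox 1, 4 and 5, against 988, 3362 and 1067 CPM in Mkx-CreER/+ 1, 2 and 4 and 639, 685, 2167 and 1889 CPM in Mkx flox/+ 1 to 4. The Mkx-CreER/flox values lay inside the control range, with a log2 fold change of 0.00 (SE 0.464).

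The remaining members of upper glycolysis did not pass either. The isomerase Gpi1 averaged 302 ± 6.37 CPM in Mkx-CreER/flox, 314 ± 113 CPM in Mkx-CreER/+ and 268 ± 67 CPM in Mkx flox/+ (SD, n = 3, 3 and 4), at 0.06 (SE 0.219). Triose phosphate isomerase, Tpi1, averaged 236 ± 42.4, 269 ± 126 and 211 ± 85.4 CPM in the same 3 genotypes, at -0.01 (SE 0.299). The second Aldoa row held 0.0973 to 4.62 CPM over the 10 libraries and stood at -0.21 (SE 0.81). Aldoc, the brain aldolase, was the lowest member: it held 0 to 0.491 CPM in Mkx-CreER/flox, 0.518 to 1.16 CPM in Mkx-CreER/+ and 0.454 to 1.36 CPM in Mkx flox/+, close to the level of 3 counts, and its value of -1.27 (SE 0.78, edgeR adjusted p = 0.386) did not pass.

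The bifunctional enzymes that make and remove fructose 2,6-bisphosphate, the activator of phosphofructokinase, showed 0 of 4 calls and fold changes between -0.02 and 0.20. Pfkfb3, the inducible form with high kinase activity, was the most abundant of them, at 133 ± 28.7 CPM in Mkx-CreER/flox, 131 ± 38.7 CPM in Mkx-CreER/+ and 138 ± 37.2 CPM in Mkx flox/+ (SD, n = 3, 3 and 4), and stood at -0.02 (SE 0.226). Pfkfb1, the form of liver and muscle, averaged 38.5 ± 9.79 CPM in Mkx-CreER/flox, 47.1 ± 7.17 CPM in Mkx-CreER/+ and 28.1 ± 10.3 CPM in Mkx flox/+. Pfkfb2 ranged from 21.1 to 37.4 CPM and Pfkfb4 from 5.11 to 22.7 CPM over all libraries.

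Lower glycolysis, from glyceraldehyde 3-phosphate to pyruvate, had fold changes between -0.40 and 0.32. Gapdh, often used as a reference gene, measured 461, 655 and 716 CPM in Mkx-CreER/flox 1, 4 and 5, against 470, 1369 and 610 CPM in Mkx-CreER/+ 1, 2 and 4 and 337, 355, 694 and 915 CPM in Mkx flox/+ 1 to 4. The controls thus spanned a wider range than Mkx-CreER/flox did, and the log2 fold change was -0.17 (SE 0.368). Pkm, pyruvate kinase, averaged 700 ± 36.5 CPM in Mkx-CreER/flox, 687 ± 246 CPM in Mkx-CreER/+ and 602 ± 153 CPM in Mkx flox/+ (SD, n = 3, 3 and 4), at 0.12 (SE 0.231). Pgk1, phosphoglycerate kinase, averaged 74.8 ± 16.5, 68.3 ± 17.2 and 55.1 ± 6.85 CPM in the same 3 genotypes, at 0.28 (SE 0.182). Gapdh and several other glycolytic genes have processed pseudogenes with near-identical sequence, and the counting of reads with several matches is a detail not given in the sources used here.

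Enolase and phosphoglycerate mutase each have a muscle form and a ubiquitous form among the members. Eno3, the muscle enolase (ENSMUSG00000060600), measured 468, 201 and 293 CPM in Mkx-CreER/flox 1, 4 and 5, against 234, 712 and 224 CPM in Mkx-CreER/+ 1, 2 and 4 and 104, 101, 484 and 333 CPM in Mkx flox/+ 1 to 4, at a log2 fold change of 0.02 (SE 0.578). Eno1, the ubiquitous enolase, measured 63.5, 108 and 126 CPM in Mkx-CreER/flox 1, 4 and 5, against 115 to 133 CPM in Mkx-CreER/+ and 104 to 148 CPM in Mkx flox/+. It stood at -0.40 (SE 0.199, edgeR adjusted p = 0.275), and the near-identical Eno1b held 0.373% as many counts. Eno2, the neuronal enolase, lay between 2.44 and 8.79 CPM. Pgam2, the muscle mutase (ENSMUSG00000020475), measured 291, 138 and 152 CPM in Mkx-CreER/flox 1, 4 and 5, against 158, 301 and 128 CPM in Mkx-CreER/+ 1, 2 and 4 and 51.5, 47.7, 221 and 170 CPM in Mkx flox/+ 1 to 4, at 0.32 (SE 0.513). Pgam1, the ubiquitous mutase, averaged 8.09 ± 3.1 CPM in Mkx-CreER/flox, 9.65 ± 2.54 CPM in Mkx-CreER/+ and 9.36 ± 3.31 CPM in Mkx flox/+ (SD, n = 3, 3 and 4), at -0.22 (SE 0.301).

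**Figure D3:**
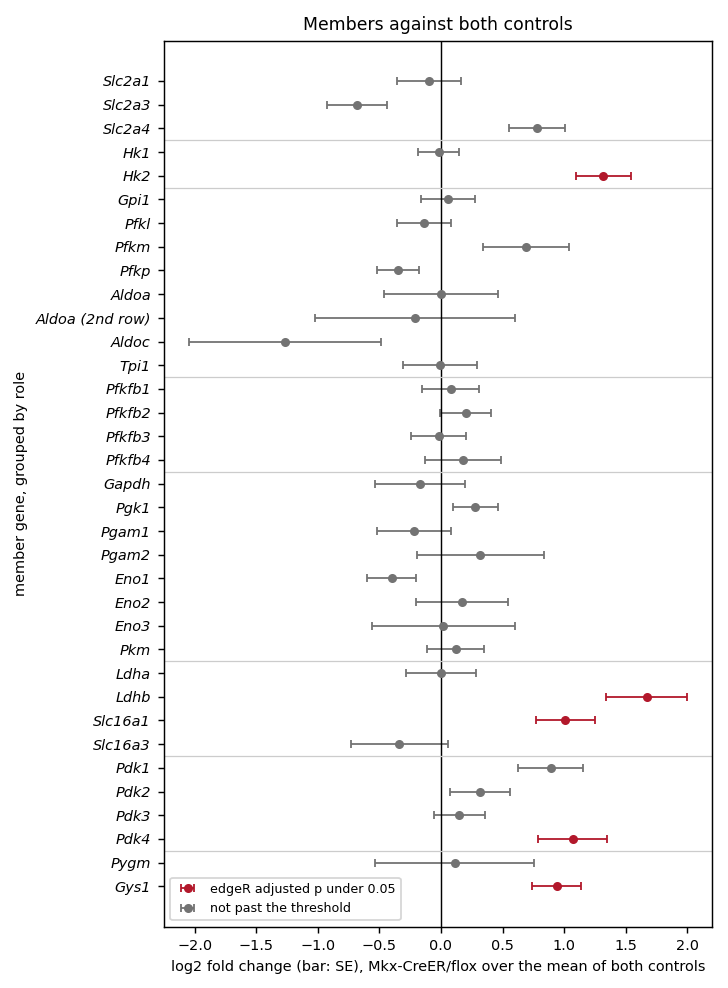
Log2 fold change of every member row, Mkx-CreER/flox over the mean of both controls, with its SE as a bar and members ordered by role. The 5 red points passed the edgeR threshold and lie between 0.94 and 1.67; the grey points did not pass.

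Levels per length of transcript ranked the muscle-rich enzymes highest. Over the mean of the 10 libraries, Aldoa came first with 532 CPM per kb of exon, ahead of Ldha (220), Pgam2 (197), Eno3 (181), Pygm (177), Gapdh (159) and Pkm (131), on the same scale. Ldhb followed at 108 and Pfkm at 104 CPM per kb. The order differed by genotype: Ldhb stood at 208 CPM per kb in Mkx-CreER/flox, above Pygm (188) and Eno3 (184). Ldhb stood at 85 in Mkx-CreER/+ and at 50 in Mkx flox/+, where Tpi1 (97.7 and 76.8) and Pfkm (112 and 70.3) stood above it. Aldoa was first in each genotype. Within the paralog pairs the muscle form had the higher mean level at every step: Pgam2 stood at 197 CPM per kb and Pgam1 at 4.57, Pfkm at 104 and Pfkl at 2.09, Eno3 at 181 and Eno1 at 22.6, Hk2 at 18.8 and Hk1 at 5.45, and Slc2a4 at 15 and Slc2a1 at 7.71. The lowest members were Eno2 at 1.17 and Aldoc at 0.194 CPM per kb.

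Muscle and ubiquitous isoforms had point estimates on different sides of 0 against both controls, though several were smaller than their SE. The 6 muscle isoforms (Slc2a4, Hk2, Pfkm, Pgam2, Eno3 and Pygm) all had positive log2 fold changes, from 0.02 to 1.32 with a median of 0.50, and 1 of them, Hk2, rose. None of the 6 ubiquitous isoforms (Slc2a1, Hk1, Pfkl, Pfkp, Pgam1 and Eno1) passed, and their values ran from -0.40 to -0.02 with a median of -0.18. Of all genes tested, 51.5% had a positive value. The signs of Pgam2, Eno3, Pygm, Slc2a1, Hk1, Pfkl and Pgam1, all with values under their SE, did not hold on dropping 1 library in turn. Over these omissions Eno3 ran from -0.38 to 0.40, Pygm from -0.28 to 0.64 and Slc2a1 from -0.52 to 0.11. Slc2a4, Hk2, Pfkm, Pfkp and Eno1 kept their signs in them. The split was not the same against each control: relative to Mkx-CreER/+ alone, 3 of 6 muscle isoforms and 0 of 6 ubiquitous isoforms were positive, and relative to Mkx flox/+ alone the counts were 6 of 6 and 0 of 6. These comparisons share the Mkx-CreER/flox libraries. Between the controls, with no Mkx-CreER/flox library, 6 of 6 muscle isoforms were positive in Mkx-CreER/+ over Mkx flox/+, with a median of 0.65 (0.60 to 1.17) and 0 calls, and 3 of 6 ubiquitous isoforms were, with a median of -0.03. With the muscle score as a covariate, Pfkm stood at -0.01 in place of 0.69.

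A ratio of the muscle form to the ubiquitous form within a library does not depend on library scaling. The log2 ratio of Hk2 to Hk1, per kb and with 2 counts added to each, was 2.98, 2.73 and 1.81 in Mkx-CreER/flox 1, 4 and 5, against 1.36, 1.80 and 2.21 in Mkx-CreER/+ 1, 2 and 4 and 0.35, 0.26, 0.79 and 1.14 in Mkx flox/+ 1 to 4. Mkx-CreER/flox 5 lay below Mkx-CreER/+ 4, so the groups overlapped. The mean was 1.38 higher in Mkx-CreER/flox than in the 7 controls (two-sided exact permutation p = 0.025, adjusted over 5 ratios p = 0.125; 120 ways, smallest possible p = 0.00833). Without Mkx-CreER/flox 1 that difference was 1.14 and without Mkx-CreER/flox 4 it was 1.27, both at an exact permutation p = 0.0833.

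The other ratios had positive differences that did not pass. Slc2a4 to Slc2a1 was 1.57 ± 0.954 in Mkx-CreER/flox, 0.96 ± 0.144 in Mkx-CreER/+ and 0.33 ± 0.823 in Mkx flox/+ (SD, n = 3, 3 and 4; difference from the 7 controls 0.97, exact permutation p = 0.1), and the difference was 1.52 (exact permutation p = 0.0278) without Mkx-CreER/flox 5. Pfkm to Pfkl was 6.21 ± 0.56, 5.70 ± 0.525 and 4.79 ± 0.857 in the same 3 genotypes (difference 1.03, exact permutation p = 0.0833). Pgam2 to Pgam1 differed by 0.77 (exact permutation p = 0.325) and Eno3 to Eno1 by 0.72 (exact permutation p = 0.35), and Mkx-CreER/flox 1 was the highest library in both. Adjusted over the 5 ratios, these 4 had exact permutation p = 0.167 to 0.35. All groups overlapped.

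**Figure D4:**
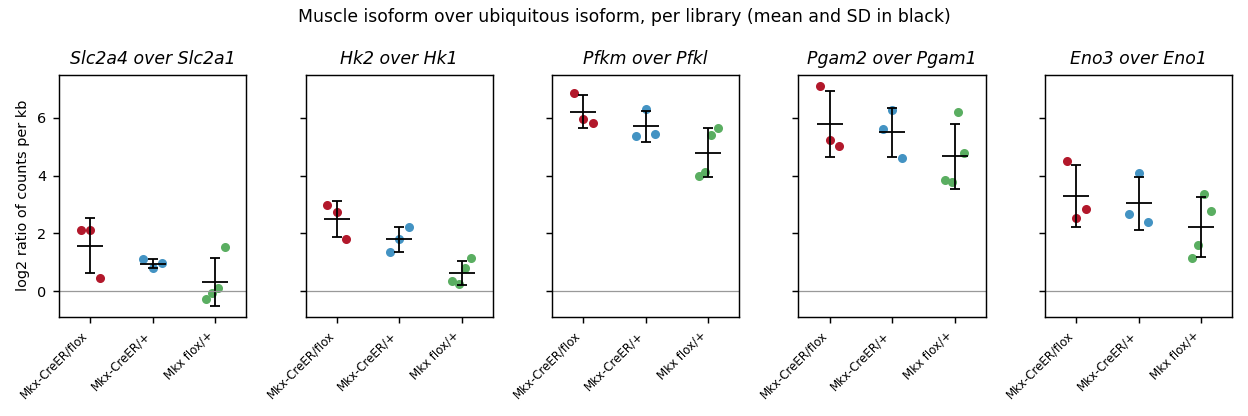
Log2 ratio of the muscle isoform to the ubiquitous isoform, per kb of exon, in each library (points) for 5 steps, with the mean and SD of each genotype in black and Mkx-CreER/flox on the left of each panel. The means descend from Mkx-CreER/flox to Mkx-CreER/+ to Mkx flox/+ in all 5 panels while the points of the genotypes overlap.

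Many members varied over the libraries with isoforms of slow muscle fibres or with those of fast ones. The fibre lists were chosen after the values had been seen and are given as a description. The summed level of 4 slow-fibre genes (Myh7, Tnnt1, Tnnc1 and Tnni1) was 2447 to 6527 CPM in Mkx-CreER/flox, 743 to 2384 CPM in Mkx-CreER/+ and 155 to 1895 CPM in Mkx flox/+, so every Mkx-CreER/flox library lay above every control. The sum of 6 fast-fibre genes (Myh4, Actn3, Pvalb, Tnnt3, Tnnc2 and Tnni2) was 1809 to 6793 CPM in Mkx-CreER/flox, 1529 to 19229 CPM in Mkx-CreER/+ and 965 to 14846 CPM in Mkx flox/+, with its peaks in the controls Mkx-CreER/+ 2 and Mkx flox/+ 3. All 10 fibre genes belong to the list of 24 muscle markers.

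Across the 10 libraries, 7 of the 35 rows had a Spearman's rho above 0.7 with the slow-fibre score, the mean log2 CPM of those genes, against 8.7% of all genes tested. They were Ldhb (0.98), Gys1 (0.96), Pdk1 (0.95), Hk2 (0.92), Slc16a1 (0.84), Slc2a4 (0.83) and Pgk1 (0.71). With the fast-fibre score, 11 of the 35 rows had a rho above 0.7, against 1.92% of all genes tested, among them Pygm (0.98), Tpi1 (0.96), Pgam2 and Eno3 (both 0.94), Aldoa (0.93) and Ldha and Gpi1 (both 0.88). No row passed 0.7 with both scores. Ldhb had a rho of 0.03 with the fast-fibre score, and Pygm had 0.16 with the slow-fibre score. Pdk4 was between the patterns, at 0.68 and 0.55. Ubiquitous forms had negative values with the slow-fibre score, from -0.73 for Pfkp to -0.37 for Hk1, apart from Pgam1 at 0.25.

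Part of the relation with the slow-fibre score lay between genotypes, and among the controls alone it was weaker for some members. The controls are themselves of different genotypes, with mean slow-fibre scores of 7.63 in Mkx-CreER/+ and 6.6 in Mkx flox/+. A part between genotypes can thus remain in them. In the 7 control libraries, rho with the slow-fibre score was 0.96 for Ldhb, 0.93 for Gys1, 0.86 for Pdk1 and 0.75 for Hk2. It was 0.71 for Slc2a4, 0.54 for Slc16a1, 0.39 for Pgk1 and 0.32 for Pdk4. With the fast-fibre score it was 0.96 for Pygm, 0.89 for Eno3, Pgam2, Aldoa and Tpi1, and 0.75 for Pdk4. Leaving out Mkx flox/+ 3 and Mkx-CreER/flox 1, the libraries farthest from the median slow-fibre score, Pearson's r on the log2 scale was 0.94 for Ldhb (0.97 with all 10), 0.83 for Gys1 (0.87), 0.77 for Hk2 (0.79), 0.91 for Slc16a1 (0.88) and 0.70 for Pdk4 (0.68). Leaving out Mkx-CreER/+ 2 and Mkx flox/+ 1, the farthest on the fast-fibre score, r was 0.90 for Pygm (0.94) and 0.83 for Eno3 (0.91). All points share the RNA input, depth and genotype of their libraries.

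**Figure D5:**
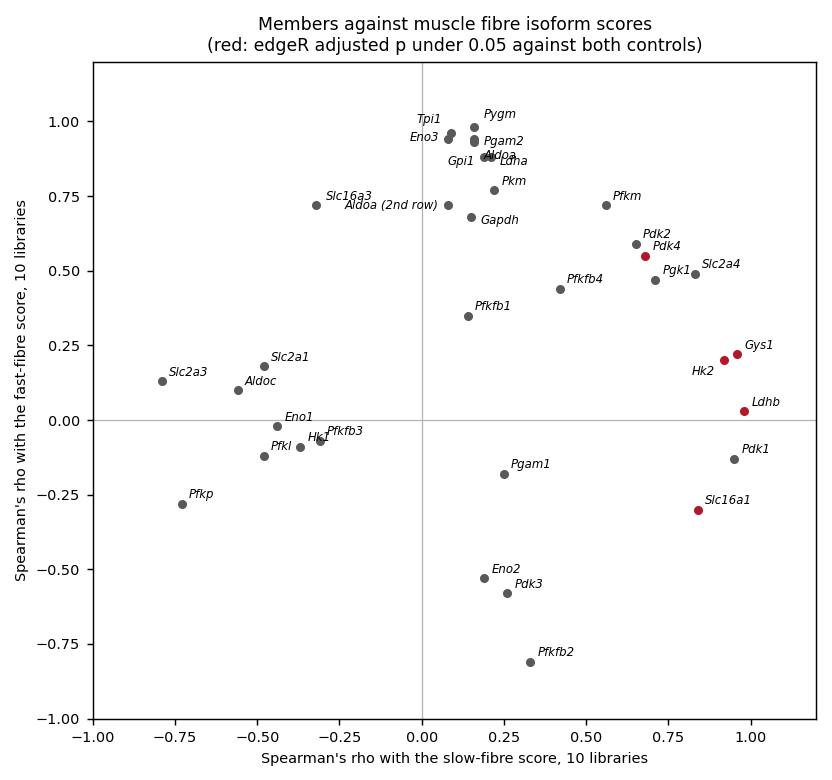
Spearman's rho over 10 libraries of each member row with the slow-fibre score (horizontal axis) and with the fast-fibre score (vertical axis); red points are the 5 members that rose in Mkx-CreER/flox against both controls. Of the red points, 4 lie at a slow-fibre rho of 0.84 to 0.98 with a fast-fibre rho of -0.30 to 0.22, and Pdk4 lies at 0.68 and 0.55. Red members were selected as higher in Mkx-CreER/flox, where the slow-fibre score was also higher on average. Their slow-fibre rho is therefore not independent of that selection.

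Fits with a fibre score as a covariate gave different calls. With the fast-fibre score, 5 members were called as without it. With the score of all 24 muscle markers, no member was called: Hk2 stood at 1.02 (edgeR adjusted p = 0.153), Ldhb at 1.32 (adjusted p = 0.2), Slc16a1 at 0.80 (adjusted p = 0.313), Pdk4 at 0.67 (adjusted p = 0.385) and Gys1 at 0.55 (adjusted p = 0.271). With the slow-fibre score, Hk2 was 0.95 (adjusted p = 0.851), Pdk4 0.72, Ldhb 0.51, Gys1 0.47 and Slc16a1 0.28, these 4 at an adjusted p = 0.999. The muscle and slow-fibre scores were themselves higher in Mkx-CreER/flox, so genotype and muscle content cannot be told apart in these fits.

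Against Mkx-CreER/+ alone, no member passed. In that comparison 0.00624% of all genes tested changed (1 gene), and 6 members and 10.7% of all genes had an unadjusted p under 0.05. Ldhb stood at 1.29 (SE 0.418), Pdk4 at 1.04 (SE 0.35), Slc16a1 at 0.99 (SE 0.296), Hk2 at 0.73 (SE 0.275) and Gys1 at 0.60 (SE 0.243), with edgeR adjusted p = 0.329 to 0.388. Ldhb and Gys1 had all Mkx-CreER/flox libraries above all Mkx-CreER/+ libraries, which 6.65% of all genes had, and 2 members had all of them below, as 6.14% of all genes had. Limma voom with sample quality weights called 1 member there.

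Against Mkx flox/+ alone, 5 members rose and 0 fell, while 7.27% of all genes tested changed, 4.37% rose and 2.9% fell. At an unadjusted p under 0.05 stood 10 members, against 23% of all genes. All Mkx-CreER/flox libraries lay above all Mkx flox/+ libraries for 8 members (10% of all genes) and below for 1, Slc2a3 (9.5% of all genes). Hk2 rose by 1.90 (SE 0.258, edgeR adjusted p = 0.00311), Ldhb by 2.06 (SE 0.389, adjusted p = 0.0126), Gys1 by 1.27 (SE 0.226, adjusted p = 0.00837), Slc2a4 by 1.08 (SE 0.263, adjusted p = 0.0254) and Slc16a1 by 1.04 (SE 0.274, adjusted p = 0.0349). Pdk4 missed the threshold at 1.11 (SE 0.322, adjusted p = 0.0538), and passed it in DESeq2 (adjusted p = 0.0101) and in limma voom with weights (adjusted p = 0.0368). Hk2 and Gys1 kept their calls in 10 of 10 omissions and Ldhb in 9, the exception being Mkx-CreER/flox 1 (1.70, adjusted p = 0.0746). Slc2a4 lost its call on dropping Mkx-CreER/flox 1 or 4, or Mkx flox/+ 1, 2 or 3 (edgeR adjusted p = 0.0589 to 0.105), and in a fit of those genotypes alone (adjusted p = 0.0503). Slc16a1 lost it after those and after Mkx-CreER/+ 1 (adjusted p = 0.054 to 0.165), with 0.61 without Mkx-CreER/flox 1.

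The 2 controls, which by their genotype labels each differ from Mkx-CreER/flox by 1 allele, were set against each other as well. No gene was called between Mkx-CreER/+ and Mkx flox/+ by edgeR (0% of all genes tested; 4.98% at an unadjusted p under 0.05, where 5 members stood), while DESeq2 called 37 genes and 1 member, Hk2. Hk2 had a log2 fold change of 1.17 (SE 0.256, edgeR adjusted p = 0.489), Pfkfb1 of 0.74 (SE 0.256, adjusted p = 0.774), Gys1 of 0.66 (SE 0.226, adjusted p = 0.774) and Slc2a4 of 0.60 (SE 0.263, adjusted p = 0.965). All Mkx-CreER/+ libraries lay above all Mkx flox/+ libraries for Hk2, as for 2.88% of all genes tested, and no member showed the opposite order, which 3.89% of all genes did. Of the member rows 28 of 35 had positive values, with a median of 0.31, against 50.3% and 0.002 over all genes. All 24 muscle markers had positive values in this comparison too, with a median of 0.65. Comparisons with Mkx-CreER/+ and with Mkx flox/+ share the Mkx-CreER/flox libraries and are given side by side only.

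Other genes of the same pathways were read from lists made with earlier results of these data known. Of 18 other glycogen genes, 4 rose and 0 fell, with a median of 0.34. Of all genes tested, 3.03% rose and 1.62% fell, with a median of 0.016. Gyg, glycogenin, the protein primer of glycogen, measured 726, 311 and 189 CPM in Mkx-CreER/flox 1, 4 and 5, against 161, 185 and 202 CPM in Mkx-CreER/+ 1, 2 and 4 and 84.3 to 160 CPM in Mkx flox/+, and rose by 1.54 (SE 0.321, edgeR adjusted p = 0.0268). Ugp2, which makes UDP-glucose for glycogen synthesis, rose by 1.51 (SE 0.31, adjusted p = 0.0249), the branching enzyme Gbe1 by 1.41 (SE 0.318, adjusted p = 0.0319) and the glycogen-binding Stbd1 by 1.40 (SE 0.354, adjusted p = 0.0384). Mkx-CreER/flox 1 was the highest library for all 4 that rose, and dropping it gave 0.81 for Gyg (adjusted p = 0.0993), 0.76 for Ugp2 (0.0855), 0.89 for Gbe1 (0.185) and 1.09 for Stbd1 (0.182). All 4 calls were also lost on dropping Mkx-CreER/flox 4, Mkx-CreER/+ 1 or Mkx-CreER/+ 2. Those of Gyg, Gbe1 and Stbd1 were lost without Mkx flox/+ 1, that of Stbd1 without Mkx flox/+ 2 and that of Gbe1 without Mkx flox/+ 3. With no filter on low counts Gyg (edgeR adjusted p = 0.0616), Ugp2 (0.0521) and Gbe1 (0.0788) missed the threshold. With the muscle score as a covariate none of the 4 passed (edgeR adjusted p = 0.266 to 0.472).

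Genes for the entry of pyruvate into mitochondria had mostly positive values, and 1 of 11 rose, where 3.03% of all genes tested did. Dlat, the acetyltransferase of the pyruvate dehydrogenase complex, measured 146, 65.7 and 57.1 CPM in Mkx-CreER/flox 1, 4 and 5, against 55.7, 47.2 and 55.8 CPM in Mkx-CreER/+ 1, 2 and 4 and 29.3 to 43.8 CPM in Mkx flox/+. It rose by 1.03 (SE 0.238, edgeR adjusted p = 0.0304), and dropping Mkx-CreER/flox 1 gave 0.46 (adjusted p = 0.173). The call was lost as well without Mkx-CreER/flox 4, Mkx-CreER/+ 1 or 2, or Mkx flox/+ 1, 2 or 3 (adjusted p from 0.0525). A muscle score covariate gave 0.67 (adjusted p = 0.386). Positive values were found in 10 of the 11, with a median of 0.77, and in 51.5% of all genes tested. Mkx-CreER/flox 1 was the highest library for all of them but Pdp2, Bsg and Slc16a7. Mpc2 measured 271, 89 and 54.8 CPM and Dld 256, 90.8 and 67.6 CPM in Mkx-CreER/flox 1, 4 and 5. For Mpc2, Dld, Pdhb and Pdha1, Mkx-CreER/flox 5 lay within the control range. Mitochondrially encoded transcripts took 6.04% ± 2.52 of the counts in Mkx-CreER/flox, 3.42% ± 1.25 in Mkx-CreER/+ and 2.07% ± 0.172 in Mkx flox/+ (SD, n = 3, 3 and 4), and their part in these values was not tested.

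Signals upstream of glycolysis showed few calls, in a comparison where 3.03% of all genes tested rose and 1.62% fell. Of 15 tested genes for other glucose transporters and insulin or AMP-kinase control, Prkaa2, a catalytic subunit of AMP-activated protein kinase, rose by 1.29 (SE 0.332, edgeR adjusted p = 0.0487), and dropping Mkx-CreER/flox 1 gave 0.85 (adjusted p = 0.304). None of 11 tested genes of other glycolysis enzymes passed, with a median of -0.00. Among 14 targets of hypoxia-inducible factors outside glycolysis, Egln1, an oxygen-sensing prolyl hydroxylase, rose by 0.63 (SE 0.161, adjusted p = 0.0384) and P4ha1, a collagen prolyl hydroxylase, fell by 1.07 (SE 0.259, adjusted p = 0.0334). P4ha1 measured 184 to 222 CPM in Mkx-CreER/flox, 281 to 340 CPM in Mkx-CreER/+ and 298 to 762 CPM in Mkx flox/+. Dropping Mkx-CreER/flox 1 gave 0.40 for Egln1 (adjusted p = 0.195) and -1.18 for P4ha1 (adjusted p = 0.076). These 3 calls were also lost without Mkx-CreER/flox 4, Mkx-CreER/+ 1, Mkx-CreER/+ 2 or Mkx flox/+ 1. Further losses followed the omission of Mkx-CreER/+ 4 or Mkx flox/+ 2 for Prkaa2, of Mkx flox/+ 2 or 3 for Egln1 and of Mkx-CreER/flox 5 for P4ha1. The Prkaa2 call was lost under RLE scaling (edgeR adjusted p = 0.0501), under scaling without mitochondrial, muscle and erythroid genes (0.0517) and with no filter (0.138) too. With the muscle score as a covariate none of the 3 passed (adjusted p = 0.141 to 0.42). None of the 5 genes of the factors themselves and their partners passed, with a median of 0.11.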

How the data were processed

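Achilles tendon RNA of 10 mice was read as raw counts per Ensembl gene in the deposited table. Per the submitters' processing notes, fastp and STAR were used with mm10. Versions, counting tool, strandedness and the handling of multi-mapped reads were details not given in the sources used here. A column was tied to 1 sample where genotype and number both fitted (Mkx flox/+), and otherwise to its genotype. Positions and exon lengths came from GENCODE vM21. Symbols came from a separate list of gene names, which paired 32158 of 32285 identifiers with a symbol.

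Counts were fitted in R 4.3.3 with edgeR 4.0.16 (filterByExpr by genotype, TMM, robust quasi-likelihood, all 10 libraries, 1 term per genotype, controls weighted equally), and Benjamini-Hochberg adjusted p under 0.05 over 16017 genes was called. The fit was tested on simulated data. Ratios and the muscle share were compared by two-sided exact permutation. Alternatives used DESeq2 1.42.0, limma 3.58.1 (voom with sample quality weights), other scalings and filters, covariates, and omission of each library. Fibre scores as covariates, a block on the column numbers, and the omission of Mkx-CreER/flox 1 with the muscle covariate, were chosen after seeing the data. The level of 3 counts covers counting error only. Library pairs of a genotype differed by 21.7 to 108 times counting error (chi-square per degree of freedom). Full statistics were given for members called against both controls, the paralog pairs and members above 100 CPM on average, and of other lists for up to 4 called genes. The members and lists were chosen with earlier results of these data known.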

Additional observations from a re-analysis of the deposited data

Results flagged for a closer look

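Of 41 values checked in the 4 Mkx flox/+ libraries (35 member rows, 5 ratios and the muscle share), 2 had a library far from the other 3, where chance alone marks about 1 in 20. Pgam1 measured 14.3 CPM in Mkx flox/+ 4, against 7.05 to 8.18 CPM in the other 3 libraries. Eno1 measured 104 CPM in Mkx flox/+ 2, against 145 to 148 CPM in the others. Both are ubiquitous isoforms and the lower partner of a paralog pair.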

How the results depend on the processing

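The column numbers of 2 genotypes are not the replicate numbers of the labels, and 1 of 7 pairs of libraries that share a column number had deviations from the genotype means correlated above 0.1 (-0.06 to 0.14, against -0.19 to 0.21 in 26 other pairs), so the numbers were not taken as a pairing. With a replicate block on the column number, 119 genes and 3 members (Hk2, Ldhb and Pdk4) were called against both controls, 0 genes against Mkx-CreER/+, 537 genes and 4 members against Mkx flox/+ and 1 gene between the controls. With both controls, genes called were 1459 in DESeq2, 2991 in limma voom with sample quality weights ("weighted voom"), 13 with the muscle score as a covariate, 1 with the slow-fibre score and 83 with the muscle score and Mkx-CreER/flox 1 left out; members called were 8 in weighted voom and 0 in those 3 covariate fits. Against Mkx-CreER/+, genes called were 126 in DESeq2, 715 in weighted voom (1 member), 9 with no filter, 0 with the slow-fibre score and 0 in a fit of those 6 libraries alone. Against Mkx flox/+, they were 1866 in DESeq2 (9 members), 2853 in weighted voom (9 members), 42 with the muscle score (0 members) and 9 with the slow-fibre score (0 members). Between the controls DESeq2 called 37 genes and 1 member. With the muscle score Pdk2 stood at -0.13, Pfkm at -0.01 and Pgk1 at -0.00, and with Mkx-CreER/flox 1 left out as well Pdk2 at -0.12 and Pgk1 at -0.07; apart from the covariate's own construction, the cause was not tested.

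With each library left out in turn, genes called against both controls ran from 64 to 1114: dropping Mkx-CreER/flox 4 gave 64, Mkx-CreER/+ 2 gave 67, Mkx-CreER/+ 1 gave 76, Mkx-CreER/flox 1 gave 213, Mkx flox/+ 1, 2 and 3 gave 246, 352 and 379, and Mkx-CreER/+ 4 gave the highest; members called ran from 1 to 7. They ran from 0 to 117 (0 to 0 members) against Mkx-CreER/+, from 455 to 1585 (2 to 7 members) against Mkx flox/+ and from 0 to 0 (0 to 0 members) between the controls. Ratio differences ran from 0.69 to 1.52 for Slc2a4, 1.14 to 1.73 for Hk2, 0.71 to 1.22 for Pfkm, 0.11 to 1.15 for Pgam2 and 0.11 to 1.10 for Eno3, and the muscle share difference from 3.69 to 5.93 points. At this depth Aldoc, and the second Aldoa row in its lowest libraries, are near the level of 3 counts.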
